A study of Mus musculus with 9 samples.

Results

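The 42 genes described here encode the machinery and the regulators of DNA replication and S phase, and they were taken by gene symbol from a table of 21898 mouse genes. All 42 were found once each. A filter on low values kept genes with 10 or more counts in at least 3 libraries, which left 40 of these genes and 13240 genes in all. Orc1 and Fen1 fell under the filter and were not tested.

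RNA came from livers of C57BL/6 mice in 9 libraries, 3 from each of 3 randomly assigned groups. TA livers came from mice on an MCD diet (deficient in methionine and choline), which produces fatty liver, that were also given tormentic acid (TA), a plant triterpenoid, at what the labels call a high dose. Model livers came from mice on the same diet without TA, and normal livers from mice labelled normal, which were given saline. The amount of TA, the age and sex of the mice, their number per library and any vehicle in the TA and model groups are not stated in the labels. The p-values therefore reflect variation among libraries, which may be partly technical. Counts per library summed to 13710002 to 16464308 in TA livers, 15519086 to 16086294 in model livers and 13950065 to 16475794 in normal livers. Summed over 12 marker genes, hepatocyte transcripts stood at 119738 to 160450 CPM (counts scaled to a common library size, as described next) in TA, 50208 to 84284 CPM in model and 129033 to 158149 CPM in normal libraries.

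Before a cell copies its genome, the origin recognition complex, Cdc6 and Cdt1 load a ring of Mcm2 to Mcm7 onto DNA, and Cdc45 and the GINS complex turn that ring into the active helicase. Polymerases, the sliding clamp PCNA and its loader RFC, and the enzymes that join the new strands then do the copying, while ribonucleotide reductase and its partners supply the nucleotides. E2F transcription factors switch most of these genes on together when a cell commits to divide. Adult hepatocytes rarely divide and are often polyploid, but they re-enter the cycle after injury, as do immune and stromal cells of the liver.

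Because E2F binding is the best known feature that these genes share, their promoters were searched for 4 E2F words (TTTCCCGC, TTTCGCGC, TTTGCCGC and TTTGGCGC, both strands) in RefSeq windows on GRCm38.p6 that run from 250 bases before to 50 after the start site. Of the 42 genes, 37 had such a window (not Mcm4, Pole, Gins1, Gins2 and Ccne2), and 43 windows stood for these 37 genes. An E2F word lay in 14 of the 43 windows (32.6%), against 744 of all 32851 windows (2.26%). Words can overlap each other (TTTCGCGC on one strand and TTTGGCGC on the other share bases in Mcm5), and the share of genes with a word among those tested was 469 of 10542 (4.45%). The shorter word CCAAT, on either strand, lay in 27 of the 43 windows (62.8%), against 37.4% of all windows, and TTTGAA, on either strand, in 5 of them (11.6%), against 17.9%. A match describes letters only. The 8 genes below held an E2F word and rose in model livers, though E2f7 passed the filter on low counts through its model libraries alone. Each is shown as 30 bases around the word nearest to its start site, with E2F words in capitals. Lig1 has 3 windows and Uhrf1 has 2, and the word lay in only 1 window of each. The start site of that window lies inside the gene bounds given below.
Cdt1 (chr8:122568035-122568064, plus strand): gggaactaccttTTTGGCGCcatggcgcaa
Mcm3 (chr1:20820275-20820304, minus strand): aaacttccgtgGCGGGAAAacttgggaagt
Mcm5 (chr8:75109349-75109378, plus strand): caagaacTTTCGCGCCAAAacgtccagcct
Mcm6 (chr1:128359734-128359763, minus strand): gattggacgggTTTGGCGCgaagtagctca
Lig1 (chr7:13278841-13278870, plus strand): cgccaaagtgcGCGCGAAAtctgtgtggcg
Uhrf1 (chr17:56304117-56304146, plus strand): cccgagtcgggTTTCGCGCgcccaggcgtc
Hells (chr19:38930917-38930946, plus strand): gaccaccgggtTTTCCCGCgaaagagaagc
E2f7 (chr10:110745230-110745259, plus strand): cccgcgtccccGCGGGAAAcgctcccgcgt

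In model livers 5 of the 6 helicase ring genes, 4 of 5 genes of chromatin copying and the ligase gene Lig1 were higher than in normal livers, while Mcm10, Tk1 and Rfc5 were lower. In TA livers 5 of the 6 ring genes and Uhrf1, Hells and Lig1 were lower than in model livers, and Mcm10 was higher. In model against normal livers 17 of the 40 genes tested rose (42.5%) and 3 fell (7.5%), against 25.4% of all genes tested that rose and 22.6% that fell. In TA against model livers 13 of 40 fell (32.5%) and 1 rose (2.5%), against 11.1% of all genes that fell and 11.8% that rose. The 17 and the 13 include E2f7, which passed the filter on low counts through its model libraries alone. Libraries of the compared groups did not overlap for 20 genes higher and 4 lower in model than in normal livers (31.3% and 30% of all genes), and for 2 higher and 19 lower in TA than in model livers (18.9% and 20.1% of all genes). In TA against normal livers 5 of 40 rose (12.5%) and 2 fell (5%), against 10.7% and 5.05% of all genes, and the libraries did not overlap for 6 higher and 4 lower ones (20.1% and 16.1% of all genes). The median log2 fold change of the 40 genes was 0.61 for model against normal, -0.41 for TA against model and -0.067 for TA against normal, and the median over all genes tested was 0.0048, -0.014 and 0.034. The first and second comparison share the model libraries, so their opposite signs are not independent of each other.

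The threshold was an adjusted p of 0.05 in edgeR quasi-likelihood tests, with p-values adjusted over all 13240 genes, and "rose by" and "fell by" give log2 fold changes, with the standard error of the fit after ± (n = 3 libraries per group). Levels are CPM after TMM scaling, and the TMM factors were 0.801 to 1.01 for TA libraries, 1.19 to 1.44 for model libraries and 0.824 to 0.841 for normal libraries. Scaling by library totals alone moved the median of all genes to 0.69 for model against normal and -0.59 for TA against model. It gave 29 replication genes higher and 1 lower in model than in normal livers (against 55.1% and 6.30% of all genes), and 26 lower and 1 higher in TA than in model livers (against 43.2% and 3.04% of all genes). Without TA replicate 3, model replicate 1 or model replicate 3, the count of genes lower in TA than in model livers was 6, 6 and 7, and the shares of all genes called lower were then 6.04%, 5.28% and 5.90%. Of the 20 calls for model against normal, 12 held in all 18 other ways of processing, those of Cdt1, Mcm2 to Mcm6, Mcm10, Lig1, Pcna, Uhrf1, Hells and E2f7. Among these, E2f7 passed the filter on low counts through its model libraries alone, so the main fit tested it only because it was high there. Of the 14 calls for TA against model 7 held in all of them, those of Mcm2, Mcm4, Mcm5, Mcm6, Mcm10, Lig1 and Uhrf1, and of the 7 calls for TA against normal 0 did.

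**Figure D1:**
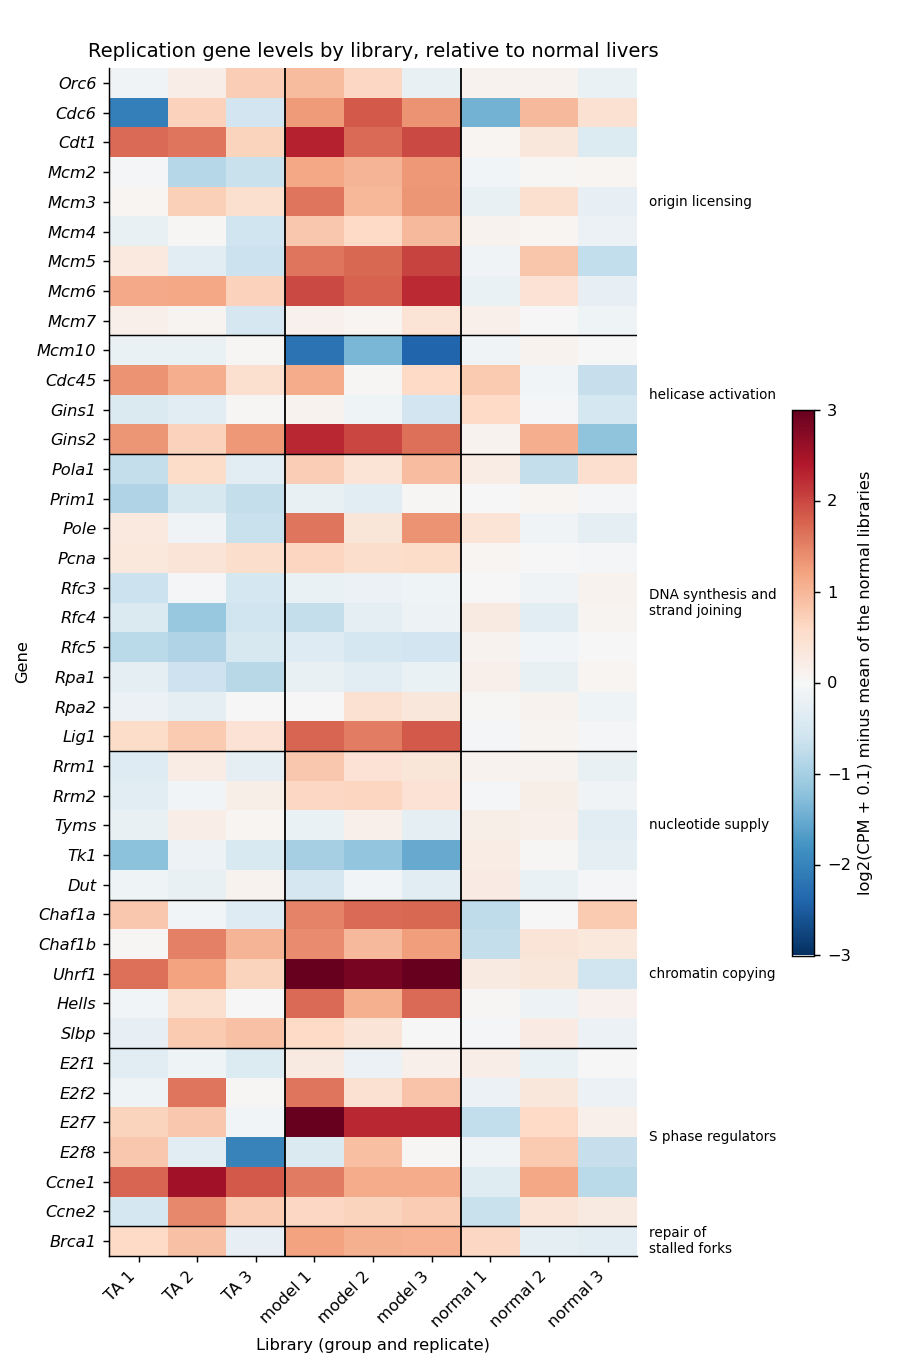
Level of the 40 tested genes in every library as log2(CPM + 0.1) minus the mean of the 3 normal libraries (red higher, blue lower, colours end at 3 and -3), with genes grouped by role and libraries by group. Cdt1, Mcm2 to Mcm6, Lig1, Uhrf1, Hells and E2f7 are red in all 3 model libraries, and Mcm10 is blue in all 3.

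Transcripts of several other cell types also differed between the groups. Of all genes tested, 25.4% rose and 22.6% fell in model against normal livers. In TA against model livers 11.8% rose and 11.1% fell. Of 12 macrophage and monocyte markers, 11 rose in model against normal livers and 6 fell in TA against model livers, and their summed level was 870.5 to 1175 CPM in TA, 1707 to 1948 CPM in model and 272 to 310.0 CPM in normal libraries, with none of the 12 at 0 in any group. Of 12 hepatocyte markers, 11 fell in model against normal livers and 9 rose in TA against model livers. Of 12 T and NK cell markers, 9 rose in model against normal livers, with sums of 27.3 to 32.9 CPM in TA, 36.2 to 44.7 CPM in model and 9.19 to 18.6 CPM in normal libraries. In TA against model livers 0 of these 12 rose and 0 fell. Of 8 erythroid markers only 3 passed the filter on low counts. Alas2, the erythroid heme synthesis enzyme, fell by 2.44 ± 0.32 (adjusted p = 0.000139) in model against normal livers. It rose by 1.43 ± 0.31 (adjusted p = 0.009504) in TA against model livers. These are the directions of Mcm10 and of most hepatocyte markers. TA against normal stood at -1.01 ± 0.31 (adjusted p = 0.0477) for Alas2 and -0.11 ± 0.23 (adjusted p = 0.779) for Mcm10. Klf1, an erythroid transcription factor, rose by 1.64 ± 0.39 (adjusted p = 0.0139) in TA against model livers, while Epor, the erythropoietin receptor, rose by 1.25 ± 0.47 (adjusted p = 0.0459) in model against normal livers. Klf1 stood at -0.93 ± 0.40 (adjusted p = 0.0745) in model against normal livers. Epor stood at -1.40 ± 0.48 (adjusted p = 0.0538) in TA against model livers, against the direction of Alas2 and Klf1. The summed erythroid markers ran from 49.7 to 83.8 CPM in TA, 15.9 to 37.8 CPM in model and 122 to 138 CPM in normal libraries. Most of that sum was Alas2 alone, at 46.2 to 79.3 CPM in TA, 12.3 to 34.8 CPM in model and 119 to 136 CPM in normal libraries. Markers of cholangiocytes, stellate cells, endothelial cells and neutrophils also rose in model against normal livers, 6 of 8, 6 of 8, 5 of 8 and 5 of 5 tested. In TA against model livers 1 of 8 stellate, 3 of 8 endothelial and 1 of 5 tested neutrophil markers fell, the stellate share near that of all genes. Of the 8 cholangiocyte markers 0 rose and 0 fell in that comparison. Of 6 B and plasma cell markers tested, 1 rose and 0 fell in model against normal livers. In TA against model livers 0 of these 6 rose and 0 fell. The summed cholangiocyte markers ran from 134 to 411 CPM in TA, 128 to 576 CPM in model and 65.4 to 71.1 CPM in normal libraries, and the summed stellate markers from 264 to 667 CPM in TA, 446 to 1342 CPM in model and 152 to 201 CPM in normal libraries. Much of the cholangiocyte sum was Spp1, at 101 to 325 CPM in TA and 96.3 to 439 CPM in model libraries. Much of the stellate sum in these libraries was Col1a1 and Col3a1. The part of these shifts in the replication genes was not tested. In bulk RNA, fewer cells of a type and less RNA per cell cannot be told apart.

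Of the 9 origin licensing genes tested, 6 rose in model against normal livers and 5 fell in TA against model livers, against 25.4% and 11.1% of all genes. Mcm6 (ENSMUSG00000026355, chromosome 1, 128331590 to 128359664 on the minus strand of GRCm38), a subunit of the helicase ring, had 11.3, 11.4 and 8.26 CPM in TA livers, 20.4, 17.6 and 24.1 CPM in model livers and 4.42, 6.91 and 4.22 CPM in normal livers. All model libraries lay above the rest, and all TA libraries lay above the normal ones. The log2 fold change was 2.002 ± 0.24 (adjusted p = 6.16e-05) for model against normal, -1.003 ± 0.22 (adjusted p = 0.0103) for TA against model and 0.998 ± 0.24 (adjusted p = 0.0157) for TA against normal. The last call was lost without TA replicate 2 or normal replicate 1 or 3 (adjusted p of 0.00296 to 0.0724).

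Mcm5, another ring subunit, had 3.44, 2.205 and 1.74 CPM in TA livers, 8.61, 9.403 and 11.6 CPM in model livers and 2.58, 5.03 and 1.63 CPM in normal livers. TA and normal libraries overlapped, and both groups lay below the model libraries. Mcm5 rose in model livers by 1.69 ± 0.39 (adjusted p = 0.00405) and stood at -1.98 ± 0.39 (adjusted p = 0.00623) in TA against model livers. Its window held an overlapping pair of E2F words, shown above.

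Mcm2, which forms the gate of the ring with Mcm5, had 4.47, 2.53 and 2.87 CPM in TA livers, 10.4, 9.46 and 11.6 CPM in model livers and 4.35, 4.78 and 4.82 CPM in normal livers. Again the TA and normal libraries overlapped and the model libraries were higher. The changes were 1.17 ± 0.25 (adjusted p = 0.00245) for model against normal and -1.66 ± 0.25 (adjusted p = 0.00258) for TA against model.

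Mcm3 had 6.89, 10.9 and 9.22 CPM in TA livers, 20.2, 13.1 and 16.6 CPM in model livers and 5.601, 9.21 and 5.48 CPM in normal livers, and Mcm4 had 5.44, 6.53 and 4.17 CPM in TA livers, 11.2, 9.67 and 12.6 CPM in model livers and 6.78, 6.65 and 5.63 CPM in normal livers. In both, every model library lay above every TA and every normal library. Mcm3 rose by 1.303 ± 0.26 (adjusted p = 0.00196) in model livers and fell by 0.89 ± 0.26 (adjusted p = 0.0292) in TA against model livers, a call lost without TA replicate 1 or 3 or model replicate 1 or 3 (adjusted p of 0.00272 to 0.122 over the 18 other ways). Mcm4 rose by 0.81 ± 0.22 (adjusted p = 0.00992) and fell by 1.05 ± 0.22 (adjusted p = 0.00803) in the same comparisons.

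Mcm7, the sixth ring subunit, had 16.6, 15.8 and 10.6 CPM in TA livers, 16.3, 15.7 and 19.8 CPM in model livers and 16.7, 14.8 and 13.6 CPM in normal livers, so that all groups overlapped. The log2 fold change was 0.199 ± 0.19 (adjusted p = 0.419) for model against normal and -0.27 ± 0.19 (adjusted p = 0.347) for TA against model, neither of which passed the test. Of its 4426 exonic bases, 557 (12.6%) are shared with exons of other genes, among them Ap4m1 on the other strand, and whether counting used strand is not stated in the labels. Among the other tested genes the share was 17.4% for Ccne2 (Ints8), 12.7% for Rfc4 (Eif4a2), 11.2% for E2f8 (Gm2788) and 10.7% for Rfc5 (Wsb2), besides Gins2 and Chaf1a below, and reads from the shared bases cannot be told apart. The summed level of Mcm2 to Mcm7 was 48.1, 49.3 and 36.9 CPM in TA, 87.1, 74.9 and 96.3 CPM in model and 40.5, 47.4 and 35.4 CPM in normal libraries. Per kilobase of exon, the highest subunit stood above the lowest by 5.84 to 9.84 times in TA, 2.77 to 3.598 times in model and 4.88 to 7.55 times in normal libraries. The length used is that of the merged exons, which need not be that of the transcript expressed, so ratios between subunits are approximate. Mcm7 was the highest of the 6 subunits in every normal library and in TA replicates 1 and 2.

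**Figure D2:**
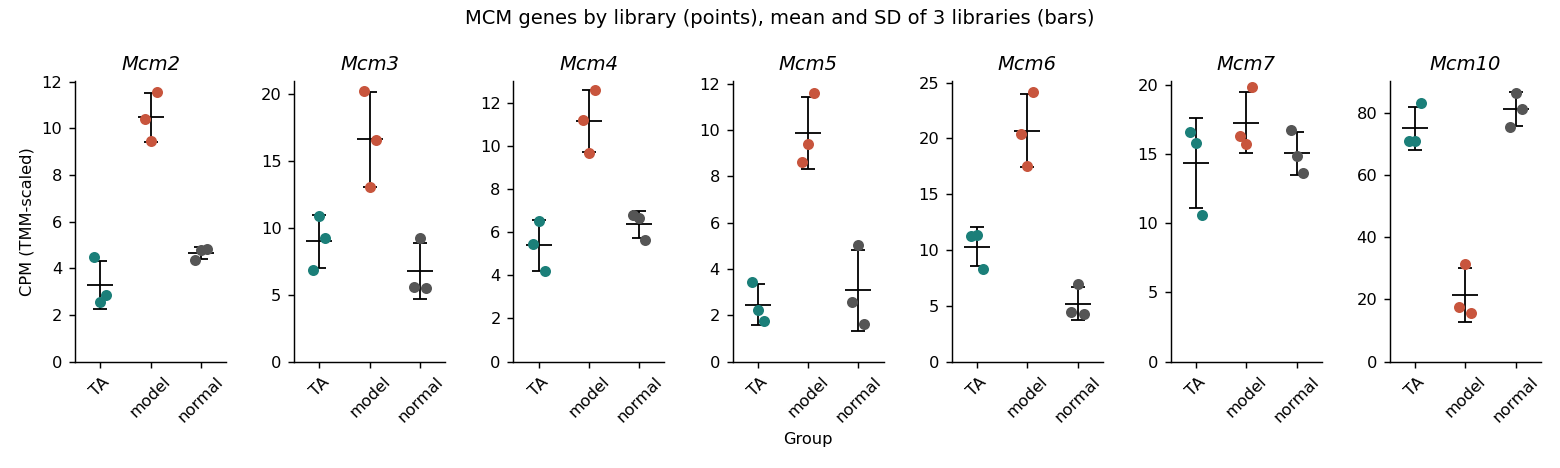
TMM-scaled CPM (vertical axis, linear from 0, own scale in each panel) of the MCM genes in TA, model and normal libraries. Points are libraries and bars the mean and SD of 3 libraries; Mcm2 to Mcm6 are highest in model livers, Mcm7 overlaps between all groups, and Mcm10 is lowest in model livers.

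Among the loading factors, Cdt1, the licensing factor that cells destroy once S phase starts, had 7.31, 6.86 and 3.57 CPM in TA livers, 11.2, 7.39 and 8.96 CPM in model livers and 2.28, 2.81 and 1.63 CPM in normal livers. Libraries of the 3 groups did not overlap in any pair of groups. Cdt1 rose by 2.04 ± 0.33 (adjusted p = 0.000526) in model and by 1.41 ± 0.33 (adjusted p = 0.0155) in TA livers against normal ones, and TA against model stood at -0.63 ± 0.31 (adjusted p = 0.161). The call for TA against normal was lost without TA replicate 1 or 2 or normal replicate 3 (adjusted p of 0.00161 to 0.0703). Cdc6, the loading ATPase, had only 1, 12 and 4 counts in TA, 34, 42 and 37 counts in model and 2, 14 and 11 counts in normal libraries. Its model libraries were above all others, but the changes of 1.33 ± 0.74 (adjusted p = 0.1605) for model against normal and -1.99 ± 0.78 (adjusted p = 0.0877) for TA against model did not pass the test.

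Orc6, a subunit of the origin recognition complex, had 2.96, 3.67 and 5.39 CPM in TA livers, 6.22, 4.95 and 2.73 CPM in model livers and 3.46, 3.41 and 2.74 CPM in normal livers and overlapped between all groups. Orc1, the complex's ATPase, had 0, 1 and 5 counts in TA, 15, 7 and 5 counts in model and 0, 0 and 2 counts in normal libraries, too few to compare.

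Of the 4 helicase activation genes tested, 1 rose and 1 fell in model against normal livers, near the shares of all genes (25.4% and 22.6%). In TA against model livers 1 rose and 0 fell, against 11.8% and 11.1% of all genes. Mcm10, a scaffold that helps switch the loaded helicase on and holds DNA polymerase alpha, moved against the ring subunits. Mcm10 (ENSMUSG00000026669, chromosome 2, 4989714 to 5012791 on the minus strand) had 71.1, 71.1 and 83.1 CPM in TA livers, 17.5, 31.5 and 15.5 CPM in model livers and 75.6, 86.6 and 81.4 CPM in normal livers. Model libraries lay below all others, and the TA and normal libraries overlapped. Mcm10 fell by 1.92 ± 0.24 (adjusted p = 8.50e-05) in model against normal livers and rose by 1.81 ± 0.24 (adjusted p = 0.00181) in TA against model livers. TA against normal stood at -0.11 ± 0.23 (adjusted p = 0.779).

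The counts of Mcm10 ran from 359 to 1177 per library, and no exon of another gene in the annotation overlaps its exons. Its promoter is shown because it is the replication gene with the clearest move in the other direction. The window held no E2F word of the 4 searched and 3 CCAAT words, 2 of them within the 150 bases printed, in capitals.
Mcm10 (chr2:5012762-5012911, minus strand): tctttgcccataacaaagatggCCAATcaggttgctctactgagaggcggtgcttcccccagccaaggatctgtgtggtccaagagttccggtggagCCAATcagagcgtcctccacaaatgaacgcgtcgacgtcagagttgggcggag

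Gins2, a subunit of the GINS complex, had 1.33, 0.817 and 1.304 CPM in TA livers, 2.65, 2.17 and 1.69 CPM in model livers and 0.516, 1.11 and 0.148 CPM in normal livers, and model libraries were above all others. It rose by 1.89 ± 0.57 (adjusted p = 0.0174) in model livers, and TA against model stood at -0.91 ± 0.53 (adjusted p = 0.238). Of its exonic bases 67.3% are shared with Gse1 on the other strand, so reads of these genes cannot be told apart. Its counts were also low, at 7, 13 and 2 in the normal libraries. The call in model livers was lost without model replicate 1 or normal replicate 1 or 3 (adjusted p of 0.00347 to 0.0619).

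Gins1, its partner, had 2.295, 2.45 and 3.22 CPM in TA livers, 3.35, 2.88 and 2.08 CPM in model livers and 4.79, 2.98 and 2.15 CPM in normal livers, and Cdc45, which completes the active helicase, had 2.48, 2.04 and 1.304 CPM in TA livers, 2.07, 0.924 and 1.43 CPM in model livers and 1.62, 0.853 and 0.519 CPM in normal livers. Libraries of both genes overlapped between all groups. The changes in model against normal livers were -0.26 ± 0.36 (adjusted p = 0.578) for Gins1 and 0.56 ± 0.51 (adjusted p = 0.382) for Cdc45.

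Of the 10 tested genes of DNA synthesis and strand joining, 3 rose and 1 fell in model against normal livers, and 2 fell in TA against model livers, shares not far from those of all genes (25.4% higher and 22.6% lower, and 11.1% lower). Lig1, the ligase that seals Okazaki fragments (ENSMUSG00000056394, chromosome 7, 13277283 to 13311433 on the plus strand), had 4.77, 5.63 and 4.35 CPM in TA livers, 10.99, 9.403 and 11.7 CPM in model livers and 3.095, 3.41 and 3.11 CPM in normal livers. No pair of groups overlapped. Lig1 rose by 1.74 ± 0.22 (adjusted p = 9.07e-05) in model against normal livers and fell by 1.12 ± 0.21 (adjusted p = 0.00531) in TA against model livers, and TA against normal stood at 0.62 ± 0.22 (adjusted p = 0.0812).

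Pcna, the sliding clamp, was the most abundant of the 42 genes per exon length. It had 41.1, 43.4 and 47.7 CPM in TA livers, 51.6, 47.7 and 48.7 CPM in model livers and 34.6, 33 and 31.5 CPM in normal livers. Normal libraries lay below all others, and the highest TA library stood beside the lowest model one. Pcna rose in model livers by 0.58 ± 0.13 (adjusted p = 0.00307) and in TA livers by 0.41 ± 0.13 (adjusted p = 0.0462) against normal livers. TA against model stood at -0.16 ± 0.12 (adjusted p = 0.366). The call for TA against normal was kept in 5 of 18 other ways of processing and lost without any 1 library other than model replicate 2 (adjusted p of 0.0292 to 0.155).

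Pole, the catalytic subunit of the leading-strand polymerase, had 2.295, 1.71 and 1.13 CPM in TA livers, 5.87, 2.39 and 4.85 CPM in model livers and 2.51, 1.71 and 1.48 CPM in normal livers. Model replicate 2 lay within the range of the normal libraries, and all TA libraries lay below the model ones. It rose by 1.202 ± 0.41 (adjusted p = 0.0317) in model livers and fell by 1.33 ± 0.42 (adjusted p = 0.0391) in TA against model livers. The first call was lost with limma-voom and without model replicate 1 or 3 or normal replicate 2 or 3. The second was lost with limma-voom, in a fit of the 6 libraries compared, and without TA replicate 2 or 3, model replicate 1 or 3 or normal replicate 2. Adjusted p over the 18 other ways ran at 0.00488 to 0.136 and 0.00912 to 0.159.

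The clamp loader subunits did not rise. Rfc5 had 6.16, 5.798 and 7.74 CPM in TA livers, 8.21, 7.5 and 7.23 CPM in model livers and 11.6, 10.2 and 10.7 CPM in normal livers, and its normal libraries lay above all others. It fell by 0.504 ± 0.19 (adjusted p = 0.0422) in model and by 0.73 ± 0.19 (adjusted p = 0.0243) in TA against normal livers, but with library totals the first value turned to 0.19 (adjusted p = 0.421, in a range of 0.0299 to 0.421). That call was also lost with no filter on low counts, with the replicate block and without any 1 of the model or normal libraries. The call for TA against normal was kept in 12 of 18 other ways and lost with library totals, with the replicate block and without TA replicate 2 or any 1 normal library (adjusted p of 0.004203 to 0.0853). Rfc3 and Rfc4 stood at -0.17 ± 0.22 and -0.396 ± 0.35 in model against normal livers and did not pass the test.

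The primase and polymerase alpha genes that start each new strand, Prim1 and Pola1, also did not pass the test. Prim1 had 2.05, 2.78 and 2.35 CPM in TA livers, 3.35, 3.098 and 4.03 CPM in model livers and 3.91, 4.09 and 3.78 CPM in normal livers, and all TA libraries lay below all model and normal ones. Pola1 had 2.42, 5.88 and 3.22 CPM in TA livers, 6.797, 5.38 and 7.75 CPM in model livers and 4.72, 2.39 and 5.71 CPM in normal livers and overlapped between all groups. Prim1 stood at -0.17 ± 0.27 (adjusted p = 0.632) in model and -0.72 ± 0.28 (adjusted p = 0.106) in TA against normal livers, and Pola1 at 0.63 ± 0.38 (adjusted p = 0.188) in model against normal livers.

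Rpa1 and Rpa2 encode subunits of the protein that coats single-stranded DNA. Rpa1 had 24.9, 19.5 and 16.9 CPM in TA livers, 25.6, 23.6 and 26.1 CPM in model livers and 33.3, 25.8 and 31.5 CPM in normal livers, and its TA libraries all lay below the normal ones. It fell by 0.56 ± 0.17 (adjusted p = 0.04597) in TA against normal livers, a call kept in 7 of 18 other ways of processing and lost, among others, without TA replicate 2 or 3, model replicate 1 or 3 or normal replicate 1 or 3 (adjusted p of 0.0142 to 0.239). Rpa2 stood at 0.29 ± 0.23 (adjusted p = 0.316) in model against normal livers and at -0.44 ± 0.23 (adjusted p = 0.1902) in TA against model livers. Fen1, the flap nuclease of the lagging strand, had 2, 2 and 4 counts in the model libraries and 0 in all TA and normal libraries. A count of 0 over the group allows a level of up to 0.0744 CPM in TA and 0.0773 CPM in normal livers, for counting error only. Of the exonic bases of Fen1 84.2% are shared with other genes, mostly the antisense gene Gm10143, and reads from the shared bases cannot be told apart. How such reads were counted is not stated, so the limits above may not hold for the level of Fen1.

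**Figure D3:**
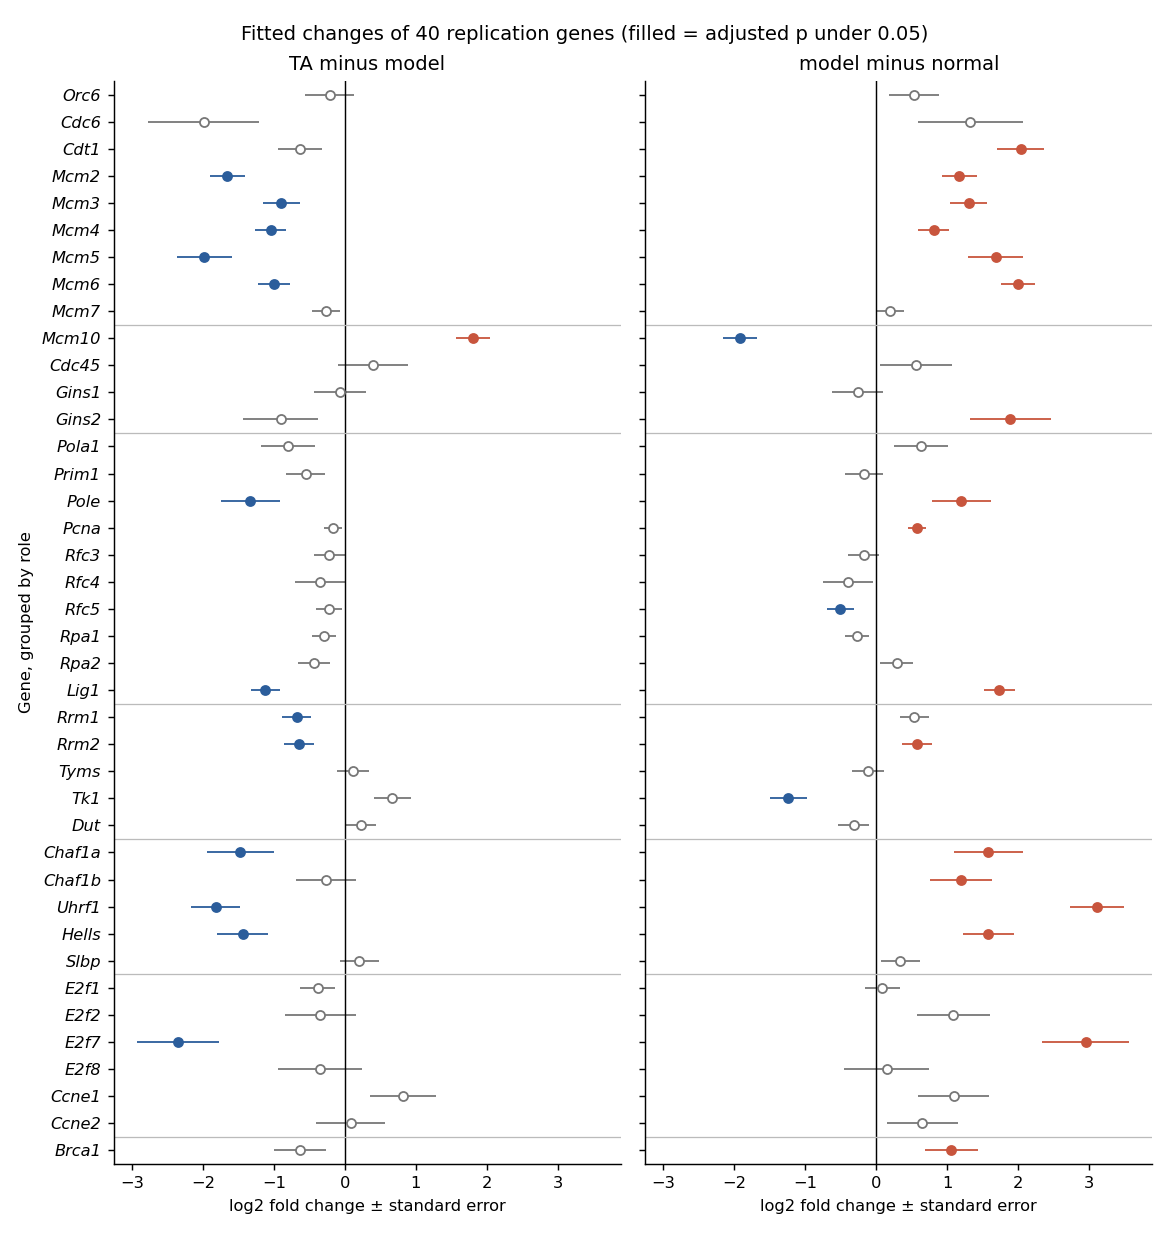
Fitted log2 fold change with its standard error for each of the 40 tested genes, TA minus model on the left and model minus normal on the right, on the same scale. Filled points passed an adjusted p of 0.05 (red higher, blue lower); 13 blue and 1 red point stand on the left, and 17 red and 3 blue points on the right.

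Of the 5 nucleotide supply genes, 1 rose and 1 fell in model against normal livers, near the shares of all genes (25.4% and 22.6%). In TA against model livers 2 fell and 0 rose, against 11.1% and 11.8% of all genes. Rrm2, the small subunit of ribonucleotide reductase, whose level limits nucleotide supply in dividing cells, had 4.65, 5.55 and 6.61 CPM in TA livers, 9.05, 9.19 and 7.97 CPM in model livers and 5.601, 6.57 and 5.41 CPM in normal livers. The model libraries lay above all others. Rrm2 rose by 0.58 ± 0.21 (adjusted p = 0.0417) in model against normal livers and fell by 0.64 ± 0.21 (adjusted p = 0.0481) in TA against model livers. The first call was kept in 9 and the second in 6 of 18 other ways of processing. The first was lost without any 1 model or normal library or TA replicate 2, and the second without any 1 library. The adjusted p ran from 0.000456 to 0.122 and from 0.00168 to 0.135.

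Rrm1, the large subunit, had 9.36, 14.5 and 10.1 CPM in TA livers, 21.6, 16.6 and 15.98 CPM in model livers and 13.3, 13.4 and 10.6 CPM in normal livers, with the model libraries above all others. It stood at 0.54 ± 0.21 (adjusted p = 0.0504) in model against normal livers and fell by 0.68 ± 0.21 (adjusted p = 0.0372) in TA against model livers, a call kept in 10 of 18 other ways of processing and lost, among others, without TA replicate 1 or 3, model replicate 1 or 3 or normal replicate 1 or 2 (adjusted p of 0.00234 to 0.154). For model against normal, 9 of the 18 other ways called Rrm1 higher (adjusted p of 0.001005 to 0.202).

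Tk1, the cytosolic thymidine kinase of the salvage pathway (ENSMUSG00000025574, chromosome 11, 117815526 to 117826092 on the minus strand), went the other way. It had 8.46, 17.9 and 14.5 CPM in TA livers, 9.98, 8.696 and 6.88 CPM in model livers and 23.4, 20.5 and 16.4 CPM in normal livers. Model libraries lay below all normal ones, and TA replicate 1 lay among the model libraries. Tk1 fell by 1.24 ± 0.26 (adjusted p = 0.00275) in model against normal livers, or by 0.55 (adjusted p = 0.0774, in a range of 0.000111 to 0.0774) with library totals. TA against model stood at 0.67 ± 0.27 (adjusted p = 0.0899).

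Tyms, which makes thymidylate, had 6.34, 8.57 and 7.83 CPM in TA livers, 6.44, 8.37 and 6.19 CPM in model livers and 8.402, 8.27 and 6.002 CPM in normal livers, and Dut, which removes dUTP, had 7.19, 6.78 and 8.52 CPM in TA livers, 5.52, 7.5 and 6.28 CPM in model livers and 9.43, 6.91 and 7.63 CPM in normal livers. All groups overlapped for both genes. Their changes in model against normal livers were -0.11 ± 0.23 (adjusted p = 0.707) and -0.32 ± 0.22 (adjusted p = 0.247).

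Of the 5 genes of chromatin copying, 4 rose in model against normal livers and 3 fell in TA against model livers, against 25.4% and 11.1% of all genes. Uhrf1, which reads hemimethylated DNA and brings the maintenance DNA methyltransferase to it (ENSMUSG00000001228, chromosome 17, 56303321 to 56323486 on the plus strand), had the largest fitted rise of the 40 genes in model livers. It had 2.48, 1.797 and 1.22 CPM in TA livers, 7.28, 5.82 and 6.58 CPM in model livers and 0.884, 0.938 and 0.445 CPM in normal livers, and no pair of groups overlapped. The normal values rest on 12, 11 and 6 counts. Uhrf1 rose by 3.11 ± 0.38 (adjusted p = 8.45e-05) in model against normal livers and fell by 1.82 ± 0.35 (adjusted p = 0.00571) in TA against model livers. The rise in TA against normal livers was 1.29 ± 0.398 (adjusted p = 0.0481), a call kept in 4 of 18 other ways of processing and, among single libraries left out, only without TA replicate 3 (adjusted p of 0.0251 to 0.165).

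Hells, a chromatin remodeller needed for DNA methylation, had 1.09, 1.63 and 1.13 CPM in TA livers, 3.93, 2.5 and 3.98 CPM in model livers and 1.18, 1.02 and 1.26 CPM in normal livers. TA and normal libraries overlapped below the model ones. It rose by 1.58 ± 0.36 (adjusted p = 0.00417) in model livers and fell by 1.44 ± 0.36 (adjusted p = 0.0164) in TA against model livers. The second call was lost without TA replicate 3 or model replicate 1 or 3 (adjusted p of 0.00212 to 0.0722).

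Chaf1a and Chaf1b are subunits of the factor that places new nucleosomes behind the fork. Chaf1a had 1.75, 0.898 and 0.696 CPM in TA livers, 2.82, 3.32 and 3.38 CPM in model livers and 0.516, 0.938 and 1.704 CPM in normal livers, and Chaf1b had 1.45, 4.16 and 2.96 CPM in TA livers, 3.88, 2.83 and 3.51 CPM in model livers and 0.811, 1.88 and 1.78 CPM in normal livers. The TA and normal values of Chaf1a rest on 29, 11 and 8 and on 7, 11 and 23 counts. For both genes the model libraries lay above all normal ones, and for Chaf1a also above all TA ones. Chaf1a rose by 1.58 ± 0.48 (adjusted p = 0.0185) in model livers and fell by 1.47 ± 0.48 (adjusted p = 0.0456) in TA against model livers, while Chaf1b rose by 1.198 ± 0.44 (adjusted p = 0.0428) and stood at -0.27 ± 0.42 (adjusted p = 0.682). The rise of Chaf1a was lost without model replicate 3 or normal replicate 1 or 2, and its fall without TA replicate 2 or 3, any 1 model library or normal replicate 2 and with the replicate block (adjusted p of 0.00351 to 0.0654 and 0.0108 to 0.137). The rise of Chaf1b was lost without TA replicate 3, model replicate 1 or 3 or any 1 normal library (adjusted p of 0.00426 to 0.143). Of the exonic bases of Chaf1a 52.5% are shared with Ubxn6 on the other strand, so reads of these genes cannot be told apart.

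Slbp, which binds the end of histone mRNAs, had 10.4, 21.3 and 22.9 CPM in TA livers, 18.8, 16.03 and 12.3 CPM in model livers and 11.8, 14.6 and 10.8 CPM in normal livers. TA replicates 2 and 3 were the highest libraries and TA replicate 1 the lowest of all 9. The groups overlapped, with changes of 0.34 ± 0.28 (adjusted p = 0.331) for model against normal and 0.21 ± 0.28 (adjusted p = 0.621) for TA against model.

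Among the 6 S phase regulators, E2f7 alone passed the test between model and normal livers, and it also fell in TA against model livers. E2f7 and E2f8 encode atypical E2F repressors that are needed for hepatocytes to become polyploid, while E2f1 and E2f2 encode activators. E2f7 had 6, 5 and 2 counts in TA, 54, 24 and 30 counts in model and 1, 4 and 3 counts in normal libraries, which was 0.362, 0.408 and 0.174 CPM in TA livers, 2.38, 1.304 and 1.299 CPM in model livers and 0.0737, 0.341 and 0.222 CPM in normal livers. It rose by 2.95 ± 0.62 (adjusted p = 0.00244) in model against normal livers and fell by 2.35 ± 0.58 (adjusted p = 0.0152) in TA against model livers. This gene passed the filter on low counts through the model libraries alone, so it could only have been tested if it was high there. Its fall was lost without TA replicate 3 or model replicate 1 (adjusted p of 0.00409 to 0.0748).

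E2f8 had 9.24, 4.16 and 1.22 CPM in TA livers, 3.84, 9.84 and 5.33 CPM in model livers and 4.86, 9.12 and 3.19 CPM in normal livers. Its 3 TA libraries spanned a wider range than either other group, and all groups overlapped. The change was 0.15 ± 0.59 (adjusted p = 0.854) for model against normal livers.

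The activator E2f1 had 3.87, 4.49 and 3.65 CPM in TA livers, 5.91, 4.35 and 5.41 CPM in model livers and 5.601, 4.26 and 4.89 CPM in normal livers, with overlap between all groups. It stood at 0.087 ± 0.24 (adjusted p = 0.786) for model against normal and -0.39 ± 0.25 (adjusted p = 0.278) for TA against model livers. The E2f2 libraries had 1.39, 4.82 and 1.57 CPM in TA livers, 4.86, 2.12 and 2.81 CPM in model livers and 1.33, 1.96 and 1.33 CPM in normal livers, with TA replicate 2 far above the other TA libraries and the model libraries above all normal ones. E2f2 stood at 1.09 ± 0.52 (adjusted p = 0.103) for model against normal livers, and was called higher without TA replicate 2, in a fit of the 6 libraries compared and with library totals (adjusted p of 0.0145 to 0.3604 over the 18 other ways).

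Ccne1 and Ccne2 encode the cyclin E proteins, which drive cells into S phase. Ccne1 had 3.503, 6.04 and 3.74 CPM in TA livers, 3.05, 2.23 and 2.21 CPM in model livers and 0.737, 2.302 and 0.519 CPM in normal livers. Its TA libraries lay above all model and all normal ones, and of the 40 genes Mcm10 was the only other whose TA libraries all exceeded the model ones. Ccne1 rose by 1.91 ± 0.504 (adjusted p = 0.0251) in TA against normal livers, and stood at 0.82 ± 0.46 (adjusted p = 0.222) in TA against model and 1.09 ± 0.501 (adjusted p = 0.0925) in model against normal livers. The call was lost without TA replicate 2 or normal replicate 1 or 3 (adjusted p of 0.00209 to 0.09298). For model against normal, Ccne1 was called higher without normal replicate 2, at 1.98, and with limma-voom and library totals (adjusted p of 0.00697 to 0.272 over the 18 other ways). Ccne2 had 0.906, 3.84 and 2.35 CPM in TA livers, 2.12, 2.17 and 2.34 CPM in model livers and 0.811, 1.79 and 1.63 CPM in normal livers, with TA replicate 1 low among the TA libraries, and stood at 0.65 ± 0.504 (adjusted p = 0.307) in model against normal livers.

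Brca1, which protects stalled forks and repairs double-strand breaks, had 3.201, 3.92 and 1.74 CPM in TA livers, 4.94, 4.46 and 4.37 CPM in model livers and 3.24, 1.71 and 1.63 CPM in normal livers. Model libraries were above all others. Brca1 rose by 1.06 ± 0.37 (adjusted p = 0.0345) in model against normal livers, a call lost without any 1 model library or normal replicate 2 or 3 (adjusted p of 0.00356 to 0.121), and stood at -0.63 ± 0.36 (adjusted p = 0.233) in TA against model livers.

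Compared per kilobase of exon, the 42 genes spanned a wide range. The listed length, that of the merged exons for 41 of the 42 genes, need not be that of the transcript expressed, so the order is approximate. Pcna led in every group, at 18.4 ± 1.38 CPM per kb in TA, 20.6 ± 0.849 in model and 13.8 ± 0.656 in normal livers (mean ± SD, n = 3). Mcm10 came second in TA livers, at 9.77 ± 0.903 CPM per kb, ninth in model livers, at 2.799 ± 1.13, and second in normal livers, at 10.6 ± 0.711. Rpa1 was next in TA and normal livers, at 3.66 ± 0.732 and 5.41 ± 0.707 CPM per kb, and its normal range lay below that of Mcm10. At the low end, E2f7 stood at 0.03495 ± 0.0138 CPM per kb in TA, 0.185 ± 0.0693 in model and 0.0236 ± 0.0149 in normal livers. In model livers Rpa1, Mcm6 and Mcm3 stood at 4.51 ± 0.235, 4.43 ± 0.706 and 4.43 ± 0.949 CPM per kb, an order of neighbours within their spread.

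**Figure D4:**
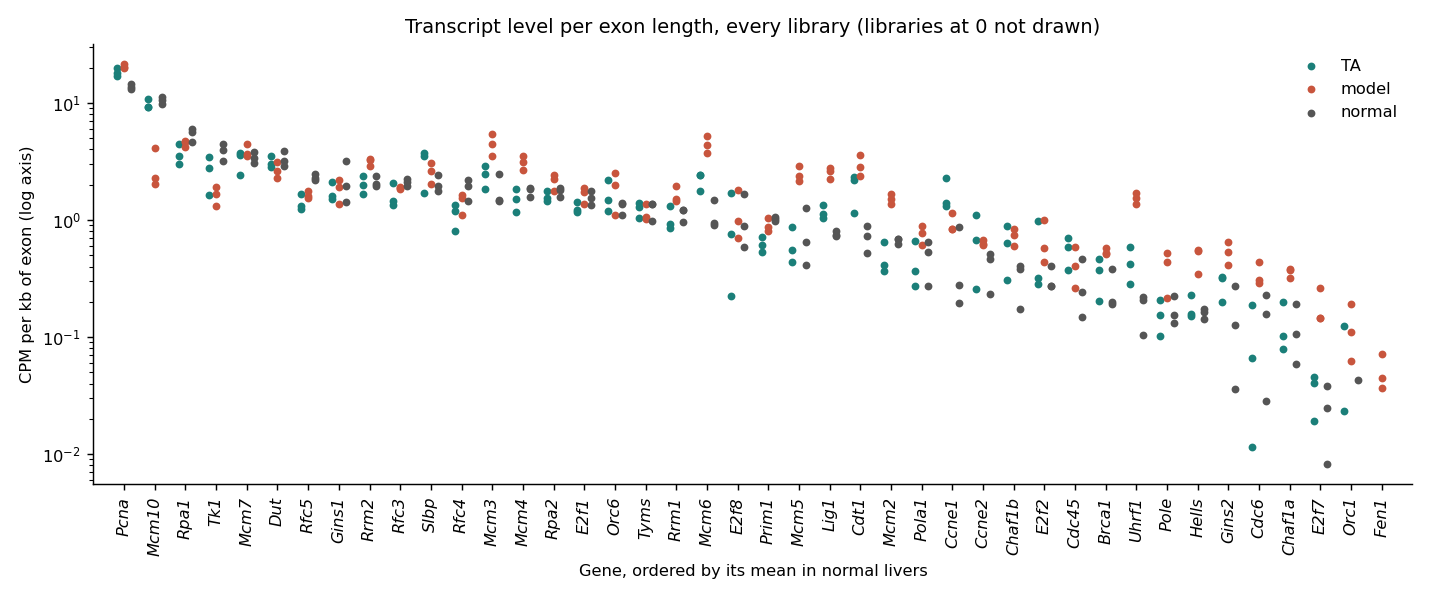
CPM per kb of exon on a log axis for the 42 genes in every library, with genes ordered by their mean in normal livers and libraries at 0 not drawn. Pcna stands highest in every group, and Mcm10 averages 9.77 CPM per kb in TA, 2.80 in model and 10.6 in normal livers.

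Of the genes with an E2F word that were tested, 8 of 13 rose in model against normal livers, with a median log2 fold change of 1.58. With E2f7 left out, which was tested only because of its model libraries, 7 of 12 rose, with a median of 1.45. Of the tested genes with a window but no such word, 6 of 22 rose and 3 fell, with a median of 0.32. The background share of 25.4% of all genes rising applies to both, and no test was made of the difference.

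Of 49 further replication and S phase genes, 48 were tested, 18 rose and 1 fell in model against normal livers, with a median of 0.35, and 8 fell and 1 rose in TA against model livers, with a median of -0.33. Of all genes 25.4% rose and 22.6% fell in the first comparison, and 11.1% fell and 11.8% rose in the second. Dnmt1, the maintenance methyltransferase that Uhrf1 recruits, had 21.6, 20.01 and 14.2 CPM in TA livers, 34.2, 30.4 and 29.4 CPM in model livers and 15.5, 15.5 and 14.9 CPM in normal livers. It rose by 1.03 ± 0.17 (adjusted p = 0.000584) in model against normal livers and fell by 0.75 ± 0.17 (adjusted p = 0.0107) in TA against model livers. Pold3, a subunit of the lagging-strand polymerase, rose by 0.78 ± 0.16 (adjusted p = 0.002496) and fell by 0.77 ± 0.16 (adjusted p = 0.00838) in these comparisons, but Pold2 of the same polymerase fell by 0.53 ± 0.17 (adjusted p = 0.0208) in model livers. Dctpp1, which clears modified nucleotides, was the only one of these genes that rose in TA against model livers, by 1.32 ± 0.22 (adjusted p = 0.00372).

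Among 15 tested partners of E2F, 3 rose and 3 fell in model against normal livers, and 3 fell in TA against model livers, counts near the shares of all genes (25.4% higher and 22.6% lower, and 11.1% lower). Rbl1, the pocket protein p107 and itself a known E2F target, had 4.77, 5.06 and 4.87 CPM in TA livers, 15.4, 10.3 and 11.2 CPM in model livers and 2.73, 2.39 and 2.52 CPM in normal livers. No pair of groups overlapped. Rbl1 rose by 2.27 ± 0.23 (adjusted p = 2.24e-05) in model against normal livers, fell by 1.33 ± 0.22 (adjusted p = 0.00347) in TA against model livers and rose by 0.94 ± 0.24 (adjusted p = 0.0197) in TA against normal livers. Rbl2 and the histone chaperone gene Rbbp4 fell in model livers, by 0.64 ± 0.19 (adjusted p = 0.0158) and 0.97 ± 0.18 (adjusted p = 0.00108).

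Nearly all genes of mitosis on the list changed, as 28 of 29 rose in model against normal livers, with a median of 2.92, and 27 of 29 fell in TA against model livers, with a median of -1.91. Of all genes 25.4% rose in the first comparison and 11.1% fell in the second. Which genes of this and the other lists passed the filter on low counts through the model libraries alone is not given here. The summed level of the list was 44.7 to 81.9 CPM in TA, 160.0 to 283 CPM in model and 35.6 to 49.03 CPM in normal libraries. Mki67, the marker of dividing cells, had 10.03, 13.1 and 5.65 CPM in TA livers, 38.1, 42.1 and 27.6 CPM in model livers and 3.02, 5.202 and 2.001 CPM in normal livers. It rose by 3.41 ± 0.37 (adjusted p = 3.23e-05) in model and by 1.51 ± 0.36 (adjusted p = 0.0167) in TA against normal livers, and fell by 1.902 ± 0.33 (adjusted p = 0.00409) in TA against model livers. The difference between the lists was not tested.

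**Figure D5:**
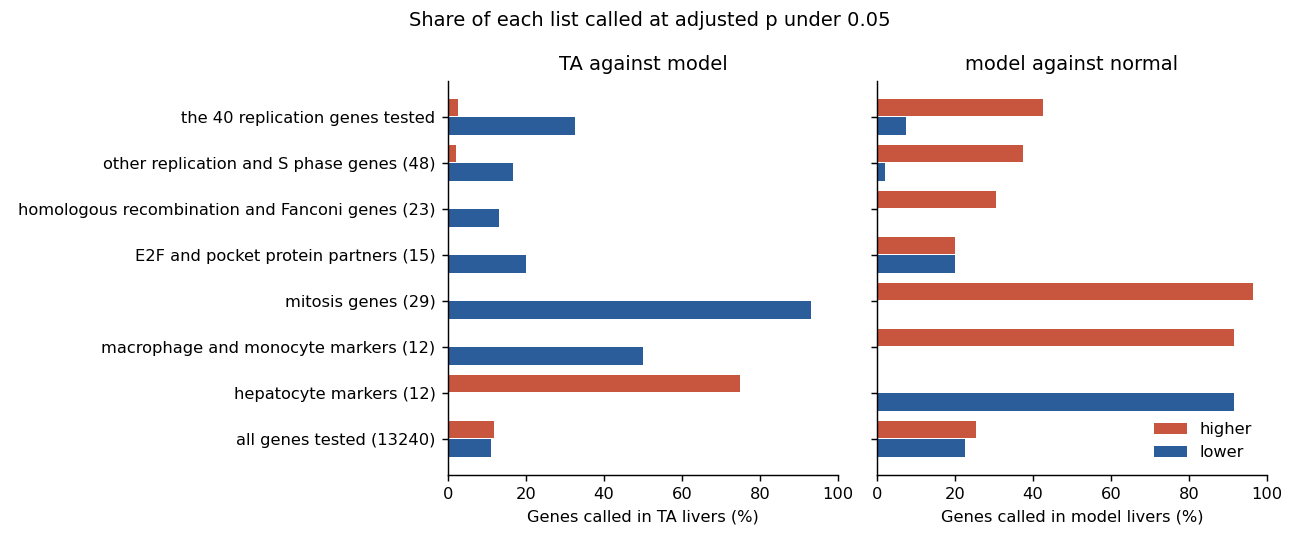
Share of the 40 replication genes, 6 other gene lists and all genes tested (number of genes tested in brackets) that was higher (red) or lower (blue) at an adjusted p under 0.05, for TA against model on the left and model against normal on the right, both axes from 0 to 100%. Of the lists drawn, mitosis genes have the longest bars for higher in model and lower in TA, and for these bars the 40 replication genes lie between the mitosis genes and all 13240 genes tested.

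The authors' deposited tables called 17 of the 40 genes at an adjusted p under 0.05 for model against normal, and all 17 were also called here, with Pole, Rrm2 and Rfc5 called here only. For TA against model the authors' deposited table called 11, of which 10 were also called here. The other was Cdc6, with an adjusted p of 0.0340 in the authors' deposited table, and 4 genes (Chaf1a, Pole, Rrm1 and Rrm2) were called here only.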

How the data were processed

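Per the labels, total RNA was extracted from liver with Trizol and libraries were made with an NEBNext Ultra kit, and the submitters' processing notes name mm9. No label or header names the aligner, the counting tool or the use of strand. The deposited table held read counts per gene, per the file headers, which were used for all tests. The authors' FPKM values in it equalled the values computed from its counts, listed lengths and library totals to within 3.54 ppm, and only the listed length was used further. That length equalled the merged exons of GENCODE M21 for 41 of the 42 genes. The deposited comparison tables held adjusted p-values by the authors, made with DESeq per the labels. The start listed for a gene matched GRCm38 for 514 of 21794 genes, so coordinates are those of GENCODE M21 or RefSeq on GRCm38. 1 emptied line was not used.

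Counts were fitted in R 4.3.3 with edgeR 4.0.16, TMM factors and quasi-likelihood tests, with 1 term for group and all 9 libraries in 1 fit. Benjamini-Hochberg adjustment ran over all genes tested. Replicate numbers did not enter the fit, since after group means were taken off only 1 of 9 pairs with the same number correlated above 0.1. Libraries of a group differed by more than counting noise. The fit was checked on simulated counts. The genes and lists were chosen with earlier results of these data known. Genes named from the other lists were those with the smallest p, up to 3 in each direction for model against normal and 2 for TA against model, besides Mki67. Other ways of processing numbered 18: DESeq2 size factors, library totals, no filter and 2 other filters on low counts, tests with DESeq2 1.42.0 and limma 3.58.1 (voom), only the 6 libraries compared, the replicate block, and each of 9 libraries left out. Low levels rest on few reads: among the genes described, Mcm10 had 359 to 1177 counts per library and Cdc6 1 to 42. Limits from a count of 0 use 3 counts and cover counting error only.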

Additional observations from a re-analysis of the deposited data

How the results depend on the processing

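For model against normal, library totals without factors gave 29 genes higher and 1 lower and a median log2 fold change of 1.31, against 17, 3 and 0.61 with TMM. Of all genes, 55.1% were then higher and 6.30% lower, against 25.4% and 22.6% with TMM. Leaving out 1 library at a time gave 12 to 18 higher, 2 to 3 lower and medians of 0.58 to 0.71. The shares of all genes were then 20.1% to 26.1% higher and 16.4% to 25.2% lower. For TA against model, library totals gave 26 lower and a median of -0.991, against 13 and -0.41. Of all genes, 43.2% were then lower, against 11.1% with TMM. Leaving out 1 library gave 1 to 2 higher (2 without TA replicate 1), 6 to 12 lower (6 without TA replicate 3, 6 without model replicate 1 and 7 without model replicate 3) and medians of -0.64 (without TA replicate 2) to -0.38. The shares of all genes were then 4.94% to 15.5% higher and 5.28% to 12.9% lower. For TA against normal, 5 genes were higher and 2 lower, against 10.7% and 5.05% of all genes. DESeq2 size factors, no filter on low counts, limma-voom, the 6 libraries alone and the replicate block each gave 3 higher, and leaving out 1 library gave 0 to 4. Of all genes, 7.2% to 10.1% were higher in those settings and 5.92% to 12% with 1 library left out. Of the lower ones 1 was left with no filter, limma-voom or the 6 libraries, 0 with library totals or the replicate block, and 0 to 2 without 1 library. The share of all genes that was lower ran from 2.31% to 6.52% over these ways. The median of the replication genes for TA against normal was -0.12 to 0.065 over the libraries left out. With the replicate number as a block, 16 genes were higher and 2 lower in model than in normal livers, and 1 was higher and 11 lower in TA than in model livers, but the numbers were not shown to pair the libraries. Of all genes, 23.4% were then higher and 19.8% lower for model against normal. For TA against model 8.53% were higher and 8.78% lower. With library totals the share of all called genes that were higher was 89.7% for model against normal (52.9% with TMM), 6.57% for TA against model (51.5%) and 78.3% for TA against normal (68.0%). The cause of these shifts was not tested.

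Of 1566 single-gene values under the alternatives, 1362 kept their direction and side of the threshold, 136 lost a call, 40 gained one and 28 changed sign. Rfc5 for model against normal (0.19 with library totals) was the only called gene that changed sign. Library totals also turned, for model against normal, Rpa1 (0.43), Rfc4 (0.29), Prim1 (0.53), Tyms (0.56), Dut (0.36), Gins1 (0.43) and Rfc3 (0.52), and, for TA against model, Cdc45 (-0.18), Slbp (-0.40), Tyms (-0.46), Dut (-0.35) and Ccne2 (-0.53). Ccne2 was also negative with limma-voom (-0.23), the replicate block (-0.10) and without TA replicate 2 (-0.47, and up to 0.47 without another). Leaving out 1 library turned Gins1 (range -0.49 to 0.11), E2f1 (-0.011 and -0.00415, up to 0.201) and E2f8 (-0.31 and -0.14, up to 0.65) for model against normal, and E2f2 (-1.15 to 0.058), Chaf1b (-0.65 to 0.048), Gins1 (0.017 and 0.097, down to -0.24), Orc6 (-0.49 to 0.061) and E2f8 (0.0976 and 0.12, down to -1.23) for TA against model. Depth limits Orc1, Cdc6, Cdc45, Gins2, Fen1, Chaf1a, Uhrf1, E2f7 and Ccne1, which had under 10 counts in at least 1 library.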

Other observations

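Genes of homologous recombination and the Fanconi pathway, which repair broken or blocked forks, formed a separate list. Of 23 tested, 7 rose in model against normal livers, with a median log2 fold change of 0.55, and 3 fell in TA against model livers, with a median of -0.37. Of all genes 25.4% rose in the first comparison and 11.1% fell in the second, shares close to those of the list. In the other direction 0 of 23 fell in the first comparison and 0 rose in the second. Of all genes 22.6% fell and 11.8% rose there. Bard1, the partner of Brca1, had 0.725, 0.327 and 0.261 CPM in TA livers, 1.28, 0.924 and 1.39 CPM in model livers and 0.147, 0.171 and 0.296 CPM in normal livers and rose by 2.5 ± 0.601 (adjusted p = 0.00539) in model against normal livers. The TA and normal values of Bard1 rest on few reads. It may have been tested only because its model libraries were high.

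The transcription factor Foxm1, which drives genes of late S phase and mitosis, had 1.93, 1.31 and 1.304 CPM in TA livers, 6.05, 7.01 and 3.42 CPM in model livers and 0.811, 1.11 and 0.519 CPM in normal livers. Foxm1 rose by 2.75 ± 0.42 (adjusted p = 0.000328) in model against normal livers and fell by 1.84 ± 0.39 (adjusted p = 0.00816) in TA against model livers. Mybl2, an S phase activator, rose by 2.29 ± 0.63 (adjusted p = 0.0108) in model against normal livers and stood at -1.62 ± 0.59 (adjusted p = 0.0688) in TA against model livers. Its levels of 0.483, 0.245 and 1.04 CPM in TA and 0.442, 0.512 and 0.148 CPM in normal livers rest on few reads. Mybl2 too may have been tested only because its model libraries were high.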
